A study of Mus musculus with 10 samples.

Results

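The 9 genes described here encode regulators of mitochondrial biogenesis and of lipid sensing. They include the PGC-1 coactivators Ppargc1a and Ppargc1b, the nuclear respiratory factors Nrf1 and Gabpa, and the estrogen-related receptors Esrra and Esrrg. The others are the fatty acid receptors Ppara and Ppard, and Rxra, a dimer partner of fatty acid receptors. Membership goes by gene name and not by a cut on measured values, though earlier results of these data were known when the 9 were picked. All 9 were found among the 20156 rows of the count table. Their transcripts were measured by RNA sequencing of hippocampus from mice aged 6 months, in 5 mice of the genotype labelled Tfam AKO (TfamAKO) and 5 mice labelled Wild Type (WT), with 1 library per mouse. The title of the series places the study in astrocytic mitochondria and their fatty acid degradation. The part of Tfam deleted, the promoter or line that drives the deletion, the strain, the sex and the litters could not be taken from the labels, and no treatment is named.

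PGC-1 coactivators bind no DNA themselves and act through the factors they dock on. NRF1 and GABP (also called NRF-2) bind promoters of respiratory chain genes and of factors that copy and transcribe mitochondrial DNA, among them Tfam. Estrogen-related receptors are orphan nuclear receptors that act on genes of the tricarboxylic acid cycle, respiration and fat oxidation. PPARs are receptors for fatty acids that act as dimers with RXR on genes of lipid uptake, storage and oxidation. In brain, Ppargc1a and Esrrg are known for high levels in fast-spiking interneurons, and PPAR alpha for a part in astrocyte fat metabolism.

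Promoter sequences were available from RefSeq (GRCm38.p6) for 8 of the 9 genes, in 13 windows, with no entry for Ppargc1b. In the 250 bases before each annotated start, 6 motifs were searched on both strands: the NRF1 core GCATGCGC, the NRF1 palindrome that puts GC before this core, the GABP site CCGGAAGT, the ERR element TCAAGGTCA, the nuclear receptor hexamer AGGTCA that ends the ERR element, and the PPAR-RXR direct repeat of that hexamer with N between the copies. The Ppara window held the NRF1 palindrome, which 0.782% of 32851 windows of this length hold. Among the 15199 windows of genes that were also tested, as all 9 regulators were, 1.44% hold it. The Esrra window held the core alone, found in 2.26% of all windows and 3.84% of those of tested genes. One Rxra window held the hexamer, as did 14% of all windows and 10.8% of those of tested genes. The GABP site (2.88% of all windows), the ERR element (0.387%) and the direct repeat (0.0335%) had no exact match in the windows of the 8 genes. Their shares in windows of tested genes were 5.06%, 0.27% and 0.0263% in that order. The windows of 3 of the 4 genes that differed between the genotypes follow, with Cycs and Cpt1a, genes known as NRF1 and PPAR targets, chosen after matches and values were seen. They are written 5′ to 3′ with RefSeq coordinates on GRCm38.p6, in lower case with matches in capitals.
Ppara, chr15:85735526-85735775, + strand: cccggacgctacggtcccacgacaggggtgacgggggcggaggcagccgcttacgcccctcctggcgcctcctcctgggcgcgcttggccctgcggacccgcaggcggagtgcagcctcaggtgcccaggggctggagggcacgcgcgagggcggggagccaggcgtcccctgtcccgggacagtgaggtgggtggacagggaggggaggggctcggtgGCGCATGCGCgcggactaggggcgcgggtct
Esrra, chr19:6921809-6922058, - strand: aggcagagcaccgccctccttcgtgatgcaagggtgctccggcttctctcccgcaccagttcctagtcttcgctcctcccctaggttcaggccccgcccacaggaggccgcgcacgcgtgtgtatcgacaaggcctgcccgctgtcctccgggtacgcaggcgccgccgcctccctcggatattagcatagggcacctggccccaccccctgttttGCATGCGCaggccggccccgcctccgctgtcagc
Ppard, chr17:28232504-28232753, + strand: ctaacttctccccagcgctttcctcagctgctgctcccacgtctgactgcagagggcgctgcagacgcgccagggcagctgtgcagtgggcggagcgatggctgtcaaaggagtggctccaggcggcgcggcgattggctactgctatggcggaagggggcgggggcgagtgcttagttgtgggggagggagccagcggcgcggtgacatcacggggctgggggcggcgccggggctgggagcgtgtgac
Cycs, chr6:50566570-50566819, - strand: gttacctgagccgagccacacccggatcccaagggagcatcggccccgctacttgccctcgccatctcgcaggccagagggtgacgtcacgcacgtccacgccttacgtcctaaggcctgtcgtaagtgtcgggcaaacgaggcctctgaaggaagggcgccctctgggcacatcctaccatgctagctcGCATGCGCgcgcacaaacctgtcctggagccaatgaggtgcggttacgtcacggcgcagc
Cpt1a, chr19:3323051-3323300, + strand: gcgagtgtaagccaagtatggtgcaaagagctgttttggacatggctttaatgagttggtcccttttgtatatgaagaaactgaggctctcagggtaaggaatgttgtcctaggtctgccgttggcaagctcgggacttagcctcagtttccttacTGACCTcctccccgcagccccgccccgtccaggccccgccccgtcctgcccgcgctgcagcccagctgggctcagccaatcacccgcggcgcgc
Capitals mark the NRF1 palindrome in Ppara, the NRF1 core in Esrra and Cycs, and the hexamer, read on the other strand, in Cpt1a. The Ppard window held none of the 6. The palindrome of Ppara starts at position -31 and the Esrra core at -34, counted from the annotated start. A match describes letters and is not a measured binding site.

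Libraries held 19558377 to 28675367 counts in TfamAKO and 16584245 to 26032470 in WT. Levels are given as CPM, counts scaled to a common library size by TMM, and genotypes were compared with edgeR's quasi-likelihood test, with p-values adjusted by the Benjamini-Hochberg method over 16180 genes. Tfam, the targeted gene, stood at 23.6, 22.7, 19.6, 23.1 and 23.4 CPM in TfamAKO 1 to 5, against 31.7, 33.0, 20.6, 32.5 and 30.4 CPM in WT 1 to 5. It averaged 22.5 ± 1.63 CPM in TfamAKO and 29.7 ± 5.17 CPM in WT (SD, n = 5 each; edgeR adjusted p = 0.0204), and WT 3 lay within the TfamAKO range. Summed markers of neurons were lower in every TfamAKO library than in any WT library, and those of microglia, endothelium and mural cells higher, while astrocyte and oligodendrocyte sums overlapped. The astrocyte sum hides opposed changes: of 11 astrocyte markers 4 rose, among them Gfap (log2 fold change 2.23 ± 0.17) and Aldh1l1 (1.29 ± 0.10), and 5 fell, among them Gjb6 (-0.94 ± 0.12) and Aldoc (-0.81 ± 0.11). Of 7 oligodendrocyte markers Cldn11 (1.58 ± 0.15) and Mag (0.87 ± 0.16) rose and 0 fell. Choroid plexus and ependyma markers summed to 211 to 377 CPM in TfamAKO and to 174 to 7660 CPM in WT, where WT 3, 4 and 5 held 4099 CPM or more. Of these 10 markers 9 fell and 1 rose, Foxj1 (log2 fold change 0.57 ± 0.16). Ttr (2319 CPM) and Enpp2 (1082 CPM) made up most of the WT mean sum of 3683 CPM. TfamAKO 4 and 5 alone carried transcripts of the Y-linked gene Kdm5d beyond 1 CPM, and results are given without them where a call changed. In bulk tissue, fewer cells of a type and less RNA per cell cannot be told apart.

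Of the 9 regulators, 2 rose in TfamAKO (Ppara and Ppard), 2 fell (Esrra and Esrrg) and 5 did not pass (edgeR, adjusted p threshold 0.05). That is 44.4% called, beside 37.4% of all genes tested, of which 20.8% were higher and 16.6% lower. All 9 passed the filter on low counts. The 4 differences ranged on the log2 scale between a fall of Esrrg by 0.54 and a rise of Ppara by 0.93, and the median log2 fold change of the 9 was 0.01, beside -0.02 over all genes. Only Ppara gave non-overlapping groups, as did 23.9% of all genes tested.

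**Figure D1:**
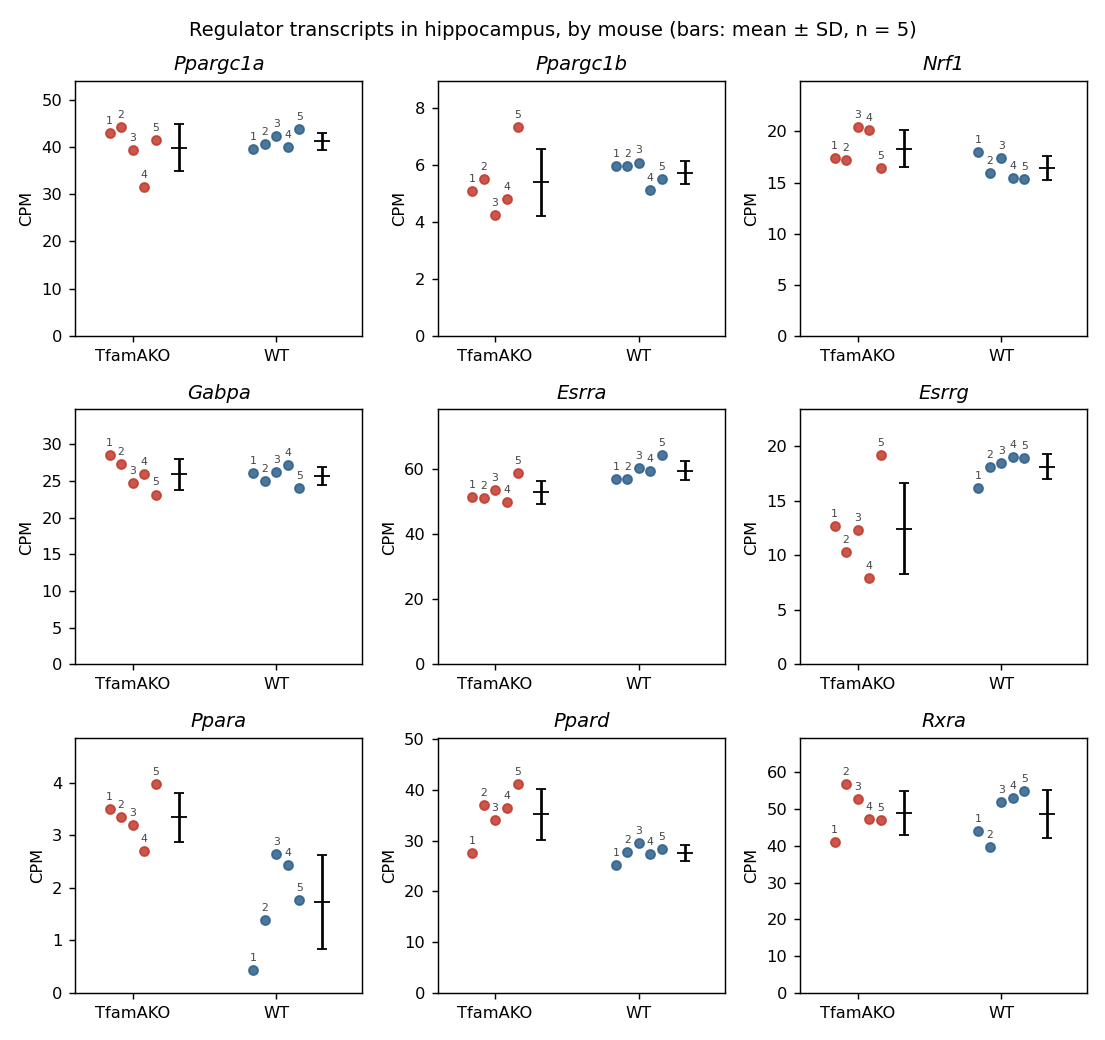
CPM of each of the 9 regulators in TfamAKO (left, red) and WT (right, blue), 1 point per mouse with its replicate number, with mean ± SD (n = 5) as a black bar. The groups are apart for Ppara alone, and for Esrrg 4 TfamAKO mice lie below the WT range while TfamAKO 5, at 19.2 CPM, lies above it.

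The PGC-1 coactivators, which recruit histone acetylases and the Mediator complex to the receptors they bind, did not pass the test. Ppargc1a, the coactivator induced by cold, fasting and exercise in other tissues, was at 43.0, 44.2, 39.3, 31.4 and 41.4 CPM in TfamAKO 1 to 5, against 39.5, 40.6, 42.3, 40.0 and 43.8 CPM in WT 1 to 5. The groups overlapped, and TfamAKO 4 was the lowest of the 10 libraries. The log2 fold change was -0.05 ± 0.09 (SE), with a 95% interval of -0.24 to 0.14 (edgeR adjusted p = 0.683). Ppargc1b, its close relative, was at 5.09, 5.49, 4.25, 4.79 and 7.33 CPM in TfamAKO 1 to 5, against 5.96, 5.95, 6.08, 5.12 and 5.49 CPM in WT 1 to 5. TfamAKO held both the lowest and the highest Ppargc1b value. Its log2 fold change was -0.08 ± 0.15, with a 95% interval of -0.41 to 0.25 (edgeR adjusted p = 0.699).

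The sign for Ppargc1b depended on which deposited table was read. In the authors' normalized values Ppargc1b averaged 135 ± 28.4 in TfamAKO and 116 ± 8.66 in WT (SD, n = 5 each), a log2 difference of 0.20 (limma adjusted p = 0.295, pseudocount 1). The ratio of count to normalized value, relative to the library median, was 0.545 for Ppargc1b in TfamAKO 3 and averaged 0.923 in TfamAKO and 1.12 in WT. In the other 8 genes this relative factor stayed between 0.723 and 1.25 in every library. Ppargc1a also changed sign with the table, with a log2 difference of -0.05 in counts and 0.0045 in the normalized values.

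NRF1 and GABP, the DNA-binding factors of respiratory gene promoters, did not pass either. Nrf1 was at 17.4, 17.2, 20.4, 20.1 and 16.5 CPM in TfamAKO 1 to 5, against 18.0, 15.9, 17.4, 15.4 and 15.4 CPM in WT 1 to 5. TfamAKO 3 and 4 lay above every WT library, and the other 3 lay within the WT range. Its log2 fold change of 0.16 ± 0.09 had a 95% interval of -0.04 to 0.35 (edgeR adjusted p = 0.183). With the authors' factors as offsets, an alternative chosen after the data were seen, the value was 0.31 (edgeR adjusted p = 0.0787). Gabpa, which encodes the DNA-binding subunit of GABP, was at 28.5, 27.4, 24.7, 26.0 and 23.1 CPM in TfamAKO 1 to 5, against 26.1, 25, 26.2, 27.2 and 24 CPM in WT 1 to 5. The WT range lay inside the TfamAKO range, and the log2 fold change was 0.01 ± 0.07, with a 95% interval of -0.15 to 0.17 (edgeR adjusted p = 0.909). Of its partner subunits, Gabpb2 fell (16.4 ± 2 CPM in TfamAKO and 22.5 ± 1.85 CPM in WT, SD, n = 5 each; log2 fold change -0.45 ± 0.10, edgeR adjusted p = 0.00337), with no overlap of the groups. Gabpb1 had a log2 fold change of 0.05 ± 0.10 (edgeR adjusted p = 0.688).

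Gabpa overlaps Atp5j, a subunit gene of ATP synthase, on the opposite strand in GENCODE M21, and Esrra overlaps Trmt112 in the same way. The libraries were stranded per the labels, but the labels do not say whether the counting used strand. Atp5j had a log2 fold change of -0.16 ± 0.05 (edgeR adjusted p = 0.0348), and Trmt112 one of 0.03 ± 0.11 (edgeR adjusted p = 0.830).

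Both estrogen-related receptors fell in TfamAKO, Esrra by little and Esrrg by more. Esrra, which encodes ERR alpha, was at 51.3, 50.9, 53.5, 49.7 and 58.6 CPM in TfamAKO 1 to 5, against 56.8, 56.9, 60.0, 59.2 and 64.0 CPM in WT 1 to 5. The 4 lowest values were those of TfamAKO 1 to 4, and TfamAKO 5 lay within the WT range. The group means were 52.8 ± 3.52 CPM in TfamAKO and 59.4 ± 2.94 CPM in WT (SD, n = 5 each), a log2 fold change of -0.17 ± 0.06 with a 95% interval of -0.30 to -0.04 (edgeR adjusted p = 0.0462). This call is at the edge of the threshold. It held in 2 of the 10 fits that left out a library (those without WT 1 and without TfamAKO 5), and over the 10 the log2 fold change ran from -0.21 to -0.15 and the adjusted p from 0.0115 to 0.109. Without WT 3, 4 and 5 the value was -0.08 (edgeR adjusted p = 0.603), and with the choroid plexus score as a covariate -0.11 (edgeR adjusted p = 0.296).

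Esrrg, which encodes ERR gamma, was at 12.7, 10.3, 12.3, 7.88 and 19.2 CPM in TfamAKO 1 to 5, against 16.2, 18.1, 18.5, 19.0 and 18.9 CPM in WT 1 to 5. TfamAKO 1 to 4 lay below every WT library and TfamAKO 5 above every one. The means were 12.5 ± 4.21 CPM in TfamAKO and 18.1 ± 1.16 CPM in WT (SD, n = 5 each), with a log2 fold change of -0.54 ± 0.19 and a 95% interval of -0.95 to -0.13 (edgeR adjusted p = 0.0404). Without TfamAKO 5 the log2 fold change was -0.75 (edgeR adjusted p = 0.00145). The call was lost in 8 of the 10 fits that left out a library, with a value of -0.41 without TfamAKO 4. It was also lost without WT 3, 4 and 5 (-0.43, edgeR adjusted p = 0.343) and with the choroid plexus score as a covariate (-0.42, edgeR adjusted p = 0.204). The coefficient of variation of Esrrg was 33.7% in TfamAKO and 6.41% in WT. In 7 of the 9 regulators this coefficient was larger in TfamAKO, with Ppara and Rxra as the exceptions. The share over all genes was not computed, so this count cannot be read as particular to the regulators.

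Markers of GABAergic interneurons (Pvalb, Sst, Vip, Gad1, Gad2 and Slc32a1) moved in the same direction as Esrrg between the genotypes. Of these 6 markers 0 rose and 5 fell, with a median log2 fold change of -0.65. Their summed level was 741, 425, 515, 323 and 539 CPM in TfamAKO 1 to 5, against 874, 765, 706, 914 and 916 CPM in WT 1 to 5, with none of the 6 at 0 in any library. TfamAKO 4 was lowest in both Esrrg and the interneuron sum, but TfamAKO 5 had the highest Esrrg of all 10 libraries with a sum below every WT library, and TfamAKO 1 had a sum within the WT range with Esrrg below it. Per 100 CPM of these markers, Esrrg was at 2.50 ± 0.662 CPM in TfamAKO and 2.19 ± 0.297 CPM in WT (SD, n = 5 each), a difference of 0.309 (p = 0.397, two-sided exact permutation test), a comparison chosen after the data were seen. The ratio ran from 1.71 in TfamAKO 1, below every WT library, to 3.55 in TfamAKO 5, above every one, and from 1.85 to 2.61 in WT. The part of interneuron RNA in the Esrrg difference was not tested. Pvalb itself was at 21 ± 7.61 CPM in TfamAKO and 29.6 ± 0.820 CPM in WT (SD, n = 5 each; -0.49 ± 0.18 on the log2 scale, edgeR adjusted p = 0.0485). It is a small part of the marker sum, which averaged 509 CPM in TfamAKO and 835 CPM in WT. The highest TfamAKO value of Pvalb, 34.5 CPM, lay above the WT range of 28.7 to 30.7 CPM, as the highest value of Esrrg did. Whether Esrrg followed Pvalb from library to library was not tested.

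**Figure D2:**
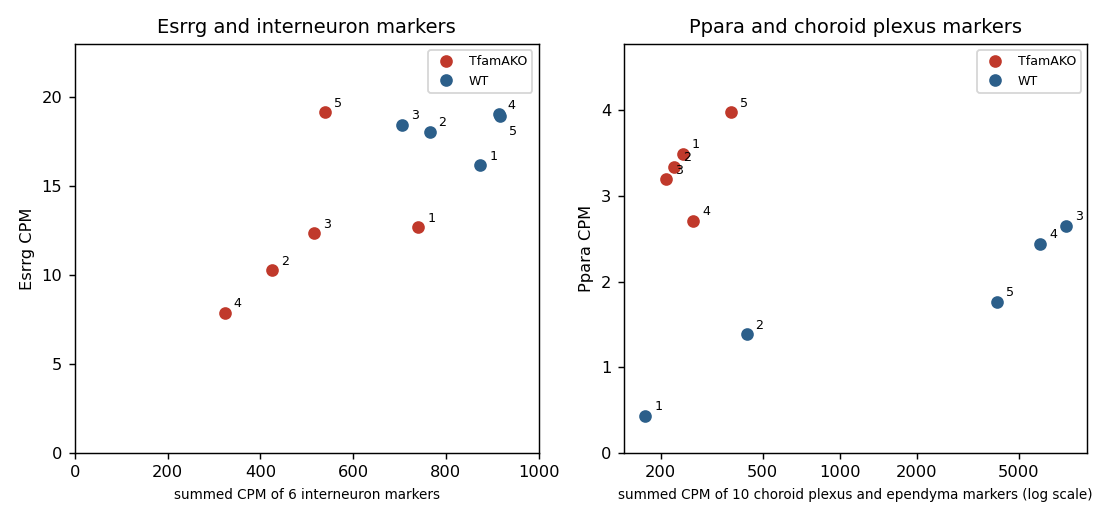
Left, Esrrg CPM against the summed CPM of 6 interneuron markers; right, Ppara CPM against the summed CPM of 10 choroid plexus and ependyma markers on a log axis; TfamAKO in red, WT in blue, 1 point per mouse with its replicate number. TfamAKO 4 is lowest on both axes at left, and at right the WT mice run upward together between 0.430 and 2.65 CPM while TfamAKO mice lie above them at marker sums of 211 to 377 CPM.

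Ppara and Ppard rose in TfamAKO, and the Ppara call was lost in 14 of 24 alternatives. Ppara, which encodes PPAR alpha, the main fatty acid receptor of fat-oxidizing tissues, was the least abundant of the 9, with 70, 70, 64, 77 and 113 counts in TfamAKO 1 to 5, against 7, 33, 51, 62 and 46 counts in WT 1 to 5. These counts correspond to 3.50, 3.34, 3.20, 2.71 and 3.98 CPM in TfamAKO, against 0.430, 1.38, 2.65, 2.44 and 1.77 CPM in WT. Every TfamAKO library was above every WT library, but the gap between TfamAKO 4 and WT 3 was small beside the spread in WT. The means were 3.35 ± 0.462 CPM in TfamAKO and 1.73 ± 0.890 CPM in WT (SD, n = 5 each), with a log2 fold change of 0.93 ± 0.33 and a 95% interval of 0.20 to 1.66 (edgeR adjusted p = 0.0453).

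The size of the Ppara difference depended on the WT libraries. Within WT, Ppara had the same order as the choroid plexus marker sum, which was 174, 433, 7660, 6048 and 4099 CPM in WT 1 to 5. Without WT 3, 4 and 5 the Ppara log2 fold change was 1.84 (edgeR adjusted p = 0.0183), and with the choroid plexus score as a covariate it was 1.93 (edgeR adjusted p = 0.00144). Without WT 1 it was 0.70 (edgeR adjusted p = 0.0302). The call was lost in 7 of the 10 fits that left out a library, with an adjusted p of up to 0.0924, and without TfamAKO 4 and 5 (0.93, edgeR adjusted p = 0.104). None of the 10 choroid plexus and ependyma markers was at 0 in any library.

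Ppard, which encodes PPAR delta, a widely expressed receptor with many targets in common with PPAR alpha, was at 27.5, 36.9, 34.1, 36.5 and 41.2 CPM in TfamAKO 1 to 5, against 25.2, 27.7, 29.4, 27.4 and 28.3 CPM in WT 1 to 5. TfamAKO 2 to 5 lay above every WT library and TfamAKO 1 within their range. The means were 35.2 ± 5.03 CPM in TfamAKO and 27.6 ± 1.55 CPM in WT (SD, n = 5 each), a log2 fold change of 0.35 ± 0.10 with a 95% interval of 0.14 to 0.56 (edgeR adjusted p = 0.0141). The Ppard call held in all 10 fits that left out a library and in 22 of 24 alternatives in all. It was lost without TfamAKO 4 and 5 (0.25, edgeR adjusted p = 0.0834) and without WT 3, 4 and 5 (0.44, edgeR adjusted p = 0.0889). Some summed markers were higher in TfamAKO as well: endothelial markers were at 271 to 435 CPM in TfamAKO and 179 to 234 CPM in WT, and microglial markers at 491 to 581 CPM in TfamAKO and 286 to 343 CPM in WT, with 4 of 5 and 6 of 7 called higher and none at 0. TfamAKO 1 was the lowest TfamAKO library in both Ppard and the endothelial sum. TfamAKO 5 had the highest Ppard, but its endothelial sum of 288.5 CPM was below those of TfamAKO 2, 3 and 4. The part of endothelial and microglial RNA in the result was not tested. The paralogue Pparg was at 1.19 ± 0.501 CPM in TfamAKO and 1.2 ± 0.262 CPM in WT (SD, n = 5 each; log2 fold change -0.01 ± 0.29, edgeR adjusted p = 0.980).

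Rxra, a dimer partner of PPARs and of several other receptors, was at 41.1, 56.9, 52.8, 47.4 and 47.0 CPM in TfamAKO 1 to 5, against 44.0, 39.8, 51.9, 52.9 and 54.9 CPM in WT 1 to 5. The groups overlapped over nearly their whole ranges, and the log2 fold change was 0.01 ± 0.11, with a 95% interval of -0.22 to 0.24 (edgeR adjusted p = 0.953). Within WT the 3 libraries rich in choroid plexus markers were the 3 highest. Without them the Rxra log2 fold change was 0.25 (edgeR adjusted p = 0.201). Of the other RXR genes, Rxrb had a log2 fold change of 0.01 ± 0.06 (edgeR adjusted p = 0.929), whereas Rxrg had 0.31 ± 0.29 (edgeR adjusted p = 0.426).

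**Figure D3:**
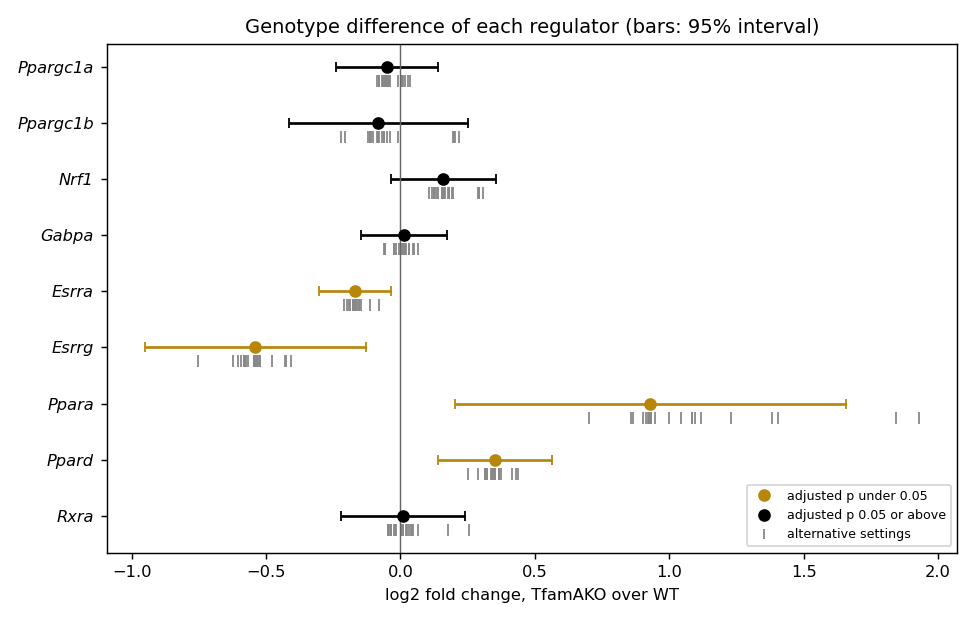
Log2 fold change of each regulator, TfamAKO over WT, with its 95% interval (points and bars; gold where the edgeR adjusted p was under 0.05) and its value under each of the 24 alternative settings (grey ticks). The 4 called genes keep their sign under every setting shown, with Ppara spread between 0.70 and 1.93, while the ticks of Ppargc1a, Ppargc1b, Gabpa and Rxra lie on both sides of 0.

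Per kilobase of the longest coding transcript in GENCODE M21, the levels in WT were ordered Esrra, Rxra, Ppard, Ppargc1a, Gabpa, Nrf1, Esrrg, Ppargc1b and Ppara. Esrra averaged 23.6 ± 1.57 CPM per kb in TfamAKO and 26.5 ± 1.31 CPM per kb in WT, and Ppara 0.980 ± 0.135 CPM per kb in TfamAKO and 0.508 ± 0.261 CPM per kb in WT (SD, n = 5 each). In WT the ranges of Rxra (8.11 to 11.2 CPM per kb) and Ppard (7.69 to 8.98 CPM per kb) overlapped, as did those of Gabpa (4.82 to 5.45 CPM per kb) and Nrf1 (4.29 to 5.03 CPM per kb). The other neighbours in that order had ranges that did not overlap. In TfamAKO the ranges of Ppard (8.38 to 12.6 CPM per kb) and Rxra (8.38 to 11.6 CPM per kb) overlapped too, with Ppard the higher on average. Within families, Esrrb was at 0.566 CPM per kb in TfamAKO and 0.653 CPM per kb in WT, and Rxrb at 26.7 CPM per kb in TfamAKO and 26.5 CPM per kb in WT, the highest of the 3 RXR genes.

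Ratios between 2 regulators within a library do not depend on library scaling, and 6 pairs were compared on the log2 scale of count + 0.5. The log2 ratio of Rxra to Ppara was 3.87 ± 0.291 in TfamAKO and 5.01 ± 0.917 in WT (SD, n = 5 each), a difference of -1.14. Rxra to Ppara was lower in 5 of 5 TfamAKO libraries than in any WT library (exact permutation, two-sided, p = 0.00794, the smallest value this design allows, and 0.0476 adjusted over 6 pairs). Without WT 1 the difference was -0.75 (exact permutation test, adjusted p = 0.0952). The groups still did not overlap. The unadjusted p-value was then the smallest that the reduced design allows, so this fit cannot pass unless another pair is as extreme. The ratio of Esrra to Esrrg was 2.14 ± 0.383 in TfamAKO and 1.71 ± 0.0723 in WT (SD, n = 5 each; difference 0.43, exact permutation p = 0.0476, adjusted 0.0952), with TfamAKO 5 the lowest of all 10 libraries. The ratio of Ppara to Ppard was -3.39 ± 0.278 in TfamAKO and -4.20 ± 0.949 in WT (SD, n = 5 each; difference 0.81, exact permutation p = 0.0476, adjusted 0.0952). Ppargc1a to Ppargc1b (difference 0.05, exact permutation p = 0.730, adjusted 0.730), Nrf1 to Gabpa (0.14, exact permutation p = 0.183, adjusted 0.274) and Ppargc1a to Esrra (0.11, exact permutation p = 0.270, adjusted 0.324) did not pass.

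Most genes known as PPAR targets rose in TfamAKO. Of 27 tested members of this list 22 rose and 0 fell (81.5%, beside 20.8% of all genes called higher). The list was chosen with earlier results of these data known, so this share is not an independent test. The median log2 fold change was 0.82, beside -0.02 over all genes. The groups did not overlap for 13 of the 27, all called higher, beside 23.9% of all genes tested. The smallest p-values were those of the lipase inhibitor Angptl4 (23.1 ± 5.02 CPM in TfamAKO and 5.17 ± 0.886 CPM in WT, SD, n = 5 each; log2 fold change 2.15 ± 0.18, edgeR adjusted p = 5.49e-06), the lipid droplet coat gene Plin2 (1.81 ± 0.15), the acyl-CoA dehydrogenase Acadl (1.34 ± 0.14) and the dienoyl-CoA reductase Decr1 (1.19 ± 0.14). Chosen after their values were seen, Cpt1a, which loads fatty acids onto carnitine at the mitochondrial membrane, rose by 0.87 ± 0.16, the uncoupling protein gene Ucp2 by 1.58 ± 0.29 and Pdk4, a brake on pyruvate oxidation, by 1.08 ± 0.22 on the log2 scale. Members that did not pass included Acaa1a (0.11 ± 0.06), Acadm (0.16 ± 0.11), Acaa2 (-0.15 ± 0.19) and Creb3l3 (-0.01 ± 0.33). Across the alternatives 19 to 23 members were called higher and 0 lower, with 19 both without WT 3, 4 and 5 and without TfamAKO 4 and 5. Many of these genes also answer to other factors, and microglial, endothelial and mural markers were higher as well (6 of 7, 4 of 5 and 3 of 5 called), with astrocyte markers changed both ways (4 higher and 5 lower of 11). Their part in the list was not tested. Of the 21 genes of this list with a RefSeq promoter, 6 held the hexamer, as Cpt1a does in the window printed above, and 0 held the direct repeat. The hexamer is in 15.8% of all 27025 genes with a window and in 13% of the 11897 that were also tested.

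**Figure D4:**
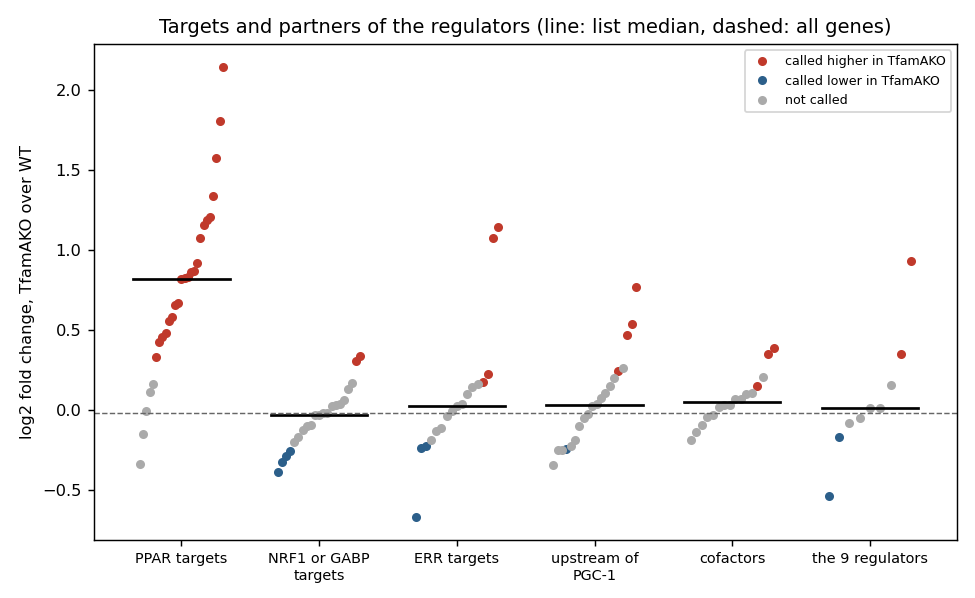
Log2 fold change (TfamAKO over WT) of each tested gene in 5 lists and in the 9 regulators, coloured by call, with the list median (black line) and the median of all genes tested (dashed, -0.02). The median of the PPAR target list is at 0.82, and the other medians lie between -0.03 and 0.05. All lists were chosen with earlier results of these data known.

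Genes known as NRF1 or GABP targets changed in both directions: of 21 tested 2 rose (9.52%, beside 20.8% of all genes) and 4 fell (19%, beside 16.6%), with a median log2 fold change of -0.03. Surf1, an assembly factor of cytochrome c oxidase, rose by 0.34 ± 0.07 and Sdhb of complex II by 0.31 ± 0.07 on the log2 scale. Cycs, which encodes cytochrome c and carries the NRF1 core in its promoter, was at 62.8 ± 6.56 CPM in TfamAKO and 82.2 ± 5.13 CPM in WT (SD, n = 5 each; log2 fold change -0.39 ± 0.07, edgeR adjusted p = 0.00184). The cytochrome c oxidase subunit genes Cox6c (-0.33 ± 0.05), Cox8a (-0.26 ± 0.05) and Cox7a2 (-0.29 ± 0.06) fell too. The NRF1 core was found in the promoters of 6 of 17 genes of this list (35.3%). It was in 2.56% of all 27025 genes with a window and in 4.61% of the 11897 that were also tested. Without WT 3, 4 and 5, 0 of this list were called higher and 2 lower.

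Of 17 tested genes known as ERR targets 4 rose (23.5%) and 3 fell (17.6%), shares close to the 20.8% and 16.6% of all genes, with a median log2 fold change of 0.02. Those that rose included Pdk4, which the PPAR list shares, Sdha (0.23 ± 0.07) and Ogdh (0.17 ± 0.05). Mitochondrial creatine kinase Ckmt1 (-0.67 ± 0.13), superoxide dismutase Sod2 (-0.24 ± 0.05) and malate dehydrogenase Mdh1 (-0.23 ± 0.05) fell. Ckmt1 is known for its level in neurons, and 5 of 8 neuron markers fell as well, with sums of 8374 to 9777 CPM in TfamAKO and 10543 to 11704 CPM in WT and none at 0. The part of neuronal RNA in these falls was not tested.

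Upstream of PGC-1, 4 of 20 genes tested rose (20%) and 1 fell (5%), beside 20.8% and 16.6% of all genes. Over the alternatives 1 to 5 were higher, with 1 without WT 3, 4 and 5, and 0 to 4 lower, with 4 without TfamAKO 5. Lpin1, a phosphatidate phosphatase that also coactivates PGC-1 alpha with PPAR alpha in mouse liver, rose by 0.47 ± 0.09, the endothelial nitric oxide synthase Nos3 by 0.77 ± 0.16 (endothelial markers had a median of 0.95), and the AMPK beta subunits Prkab1 by 0.54 ± 0.13 and Prkab2 by 0.24 ± 0.08 on the log2 scale. Hdac5, a class IIa deacetylase that represses MEF2, fell (-0.24 ± 0.06). Among those that did not pass, chosen after their values were seen, the AMPK catalytic subunits had log2 fold changes of -0.10 ± 0.09 (Prkaa1) and -0.05 ± 0.11 (Prkaa2), and the deacetylase Sirt1 one of -0.25 ± 0.10 (edgeR adjusted p = 0.0736). Of 16 cofactors 3 rose (18.8%, beside 20.8% of all genes) and 0 fell, and 0 rose both without WT 3, 4 and 5 and with the choroid plexus covariate. The 3 were the CREB coactivators Crtc3 (0.39 ± 0.10) and Crtc2 (0.35 ± 0.09) and the corepressor Ncor1 (0.15 ± 0.05). The coactivator Ncoa3 had 0.20 ± 0.08 (edgeR adjusted p = 0.0568).

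Of 10 other nuclear receptors that pair with RXR, 2 rose and 2 fell (20% each, beside 20.8% and 16.6% of all genes). Over the alternatives 1 to 4 were higher, with 4 without TfamAKO 1, and 1 to 3 lower. The vitamin D receptor Vdr was at 1.13 CPM on average in TfamAKO and 0.246 CPM in WT (2.20 ± 0.33 on the log2 scale, edgeR adjusted p = 0.000377). Vdr ran from 0.154 to 0.335 CPM in WT, near the floor, and from 0.599 to 1.385 CPM in TfamAKO. It passed the filter on low counts only through the TfamAKO libraries, which limits what its fold change and p-value can show. The retinoic acid receptor Rarg rose by 0.67 ± 0.12. Nr4a2 (-1.11 ± 0.15) and the thyroid hormone receptor Thrb (-0.46 ± 0.14) fell. Of 3 tested fatty acid binding proteins, which carry ligands to PPARs, Fabp5 rose (87.2 ± 14.7 CPM in TfamAKO and 57.9 ± 3.95 CPM in WT, SD, n = 5 each; log2 fold change 0.59 ± 0.11, edgeR adjusted p = 0.00124), Fabp3 fell (-0.39 ± 0.09) and Fabp7 had 0.26 ± 0.14 (edgeR adjusted p = 0.156). Among 7 paralogues and partner subunits of the regulators 0 rose and Gabpb2 fell. The PGC-1 relative Pprc1 had a log2 fold change of -0.32 ± 0.16 (edgeR adjusted p = 0.137), and Esrrb, which encodes ERR beta, one of -0.21 ± 0.24 (edgeR adjusted p = 0.507).

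For each called regulator, the 2 genes most like it were found by the root mean square difference of log2 CPM, taken relative to the WT mean, over the 10 libraries among 14781 genes of at least 1 CPM. Esrra was matched most closely by Col4a3bp (difference 0.0348) and Pacsin1 (0.0528). Ppard was nearest to Gpd1 (0.0657) and Fam149a (0.0661), and Esrrg to Lrrtm3 (0.102) and Dpy19l1 (0.123). The nearest to Ppara lay farther off, at 0.271 for a pseudogene that the table lists without a symbol and 0.356 for Il17rc.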

How the data were processed

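Poly(A) RNA of hippocampus was sequenced from stranded libraries, per the labels' protocols. The authors deposited a table of estimated counts, held as whole numbers, from Salmon (no version given), with DESeq2 1.26.0 also named, per the submitters' processing notes. A second deposited table holds the authors' normalized signal values, whose ratio to the counts differs between genes of 1 library, by a method not given in the sources used. Genome build, annotation and use of strand in counting were likewise not given there.

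Counts were tested with edgeR 4.0.16 (quasi-likelihood test, TMM scaling, filterByExpr with a minimum count of 10, which removed 3976 genes and left 16180), in R 4.3.3, with 5 TfamAKO against 5 WT libraries, no covariate and an adjusted p threshold of 0.05. Pair ratios were tested with scipy 1.17.1 (two-sided exact permutation). The alternatives used DESeq2 1.42.0, limma 3.58.1 (log2 of normalized value + pseudocount), other scalings and filters, a replicate block, a choroid plexus score as covariate, and libraries left out. The scripts were tested on simulated data.

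The members and lists were chosen with earlier results of these data known. Named genes are the 9 regulators, Tfam, up to 4 genes of smallest p per list, and the 2 nearest genes to each called regulator. Other names (Cpt1a, Ucp2, Pdk4 as a PPAR target, Cox7a2, Sdhb, Ogdh, Sdha, Mdh1, Prkab2, Prkaa1, Prkaa2, Sirt1, Gabpb1, Rxrb, Pparg, Atp5j, Trmt112, Kdm5d and list members that did not pass) were chosen after their values were seen. Each library is 1 mouse per the labels, so the p-values measure the spread between these mice. Some genes that this rule names are not reported here.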

Additional observations from a re-analysis of the deposited data

Results flagged for a closer look

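In 32 groups of 5 values checked, 3 held a sample far from its own group by Dixon's criterion, which chance gives in about 1 of 20 groups. Tfam was at 19.6 CPM in TfamAKO 3, below the other 4 TfamAKO libraries. Tfam was at 20.6 CPM in WT 3, below the other 4 WT libraries and within the TfamAKO range. In the authors' normalized values, where TfamAKO libraries ran from 416 to 629 for Tfam, WT 3 was at 617, within the range of the other WT libraries, and WT 1 was the lowest of WT at 501 (relative factor 1.40). The log2 ratio of Rxra to Ppara was 6.58 in WT 1, the library with 7 Ppara counts, above the other 4 WT libraries.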

How the results depend on the processing

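With 5 mice a group, Ppara at 7 to 113 counts is limited by depth, and 3 of the 4 called regulators lay close to the threshold. Of the 2 called higher, 1 was called with upper-quartile scaling, no filter, normalized values at pseudocount 0.5 or 1, the replicate block, without WT 3, 4 and 5, and with the authors' factors as offsets (chosen after the data were seen), and 0 without TfamAKO 4 and 5. Leaving out 1 library gave 1 to 2. Of the 2 called lower, 1 was called with no filter and with normalized values at each pseudocount, and 0 without WT 3, 4 and 5 and with the choroid plexus covariate. Leaving out 1 library gave 0 to 2. Of 118 tested genes in the pathway lists, 37 were higher and 12 lower, beside 20.8% and 16.6% of all genes. PPAR targets made up 22 of the 37. Without WT 3, 4 and 5 the counts were 24 higher and 6 lower, where 16.5% of all genes were called in either direction. Leaving out 1 library gave 32 to 43 higher and 11 to 17 lower. Apart from the fewer libraries or genes, the cause of these shifts was not tested. Signs of Gabpa, Ppargc1a, Ppargc1b and Rxra, never called, changed between settings.

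The log2 ratio of Rxra to Ppara differed by -1.44 in normalized values (exact permutation, adjusted p = 0.0952) and by -1.83 without WT 3, 4 and 5 (adjusted 0.286). Without WT 3, 4 and 5 no pair can pass, as too few assignments remain. With 1 library left out the difference was -1.33 to -0.75, passing only without TfamAKO 4 or without TfamAKO 5. The groups stayed apart in each of these fits, so passing there turned on how extreme the other pairs were. Without TfamAKO 4 and 5, Ppargc1a to Ppargc1b (0.25), Esrra to Esrrg (0.43), Ppara to Ppard (0.93) and Ppargc1a to Esrra (0.23) passed (exact permutation, adjusted p = 0.0429 each). Rxra to Ppara passed there as well. All of these were at the smallest p-value of that reduced design, and they passed only because several pairs shared it. With 1 library left out these ratios ran over 0.30 to 0.56 for Esrra to Esrrg and 0.42 to 1.0 for Ppara to Ppard, passing without TfamAKO 5 and TfamAKO 4 in turn.

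Replicate numbers are shared between the genotypes, but same-numbered libraries did not deviate together (r from -0.142 to 0.0691), so they share only a number. With the replicate block, 5679 genes were called (35.1%), Ppara had 1.04 (edgeR adjusted p = 0.0587), and Rxra to Ppara had -1.14 (exact sign-flip permutation of 5 pairs, adjusted p = 0.375, which cannot pass at this size).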
